A study of Mus musculus with 8 samples.

Results

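The ABC transporter genes of the mouse were followed in stem and progenitor cells of the blood from leukemic and normal mice. They were taken by name, as all genes whose single platform symbol is Abc with a subfamily letter from a to g and a number. This gave 45 genes of 18193 measured. They were read by 92 probe sets, and each gene was represented by its brightest probe set, by mean of the 8 arrays. ABC transporters share an ATP-binding cassette, and most of them use the energy of ATP to carry a substrate across a membrane. Subfamilies A and G move mainly sterols and other lipids, B and C hold drug pumps and carriers of mitochondria and bile, and D carries fatty acids into peroxisomes. Members of E and F have the cassette but no membrane part, and they act on ribosomes and in translation. In blood, the efflux of dyes through pumps of this family has long been used to sort stem cells.

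The chimeric mice had received CD45.2+ marrow with 2 transgenes, BCR-ABL and SCL-tTA, and as many CD45.1+ marrow cells, in CD45.1+ hosts, or were made without BCR-ABL. BCR-ABL is the kinase behind chronic myeloid leukaemia, and SCL-tTA drives it in early blood cells after the withdrawal of tetracycline. All 4 groups were CD45.1+ cells, which did not carry the transgene. The design text gives the sort of the stem cells as 4 weeks after withdrawal. No such time was found for the KSL samples. The groups, with 2 arrays each, were HSC (CD150+ CD48- KSL) of leukemic mice, HSC of normal mice, KSL (lineage negative, Kit+, Sca-1+) of leukemic mice and KSL of normal mice. HSC are a fraction of the KSL gate, and CD45.1+ cells of these chimeras can stem from the graft or from the host. Whether the 2 replicates of a group were separate animals is not labelled, so p-values measure the spread between these samples. Age and strain were not in the labels used here.

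Replicate arrays correlated across genes with r = 0.957 in HSC of leukemic mice, 0.965 in HSC of normal mice, 0.994 in KSL of leukemic mice and 0.988 in KSL of normal mice. The median SD of the ABC genes between replicates was 0.20 log2 units in both HSC groups, 0.10 in KSL of leukemic mice and 0.17 in KSL of normal mice. Replicate 1 of each normal group had a male pattern of sex-linked genes, and the other 6 arrays did not. The 2 replicates of each normal group thus differed in sex pattern, and their spread includes that difference. Neither leukemic group had an array of male pattern. Sex pattern was therefore not balanced between leukemic and normal mice, and the differences between them include it as well. The gates were checked against 5 HSC markers (Slamf1, Procr, Fgd5, Mecom and Hlf), all measured. None was at the floor of the values on both arrays of a group, and Fgd5 was at it on replicate 2 of KSL of leukemic mice. Their summed linear signal was 2266 to 3091 in HSC of leukemic mice, 3985 to 4546 in HSC of normal mice, 367 to 458 in KSL of leukemic mice and 762 to 808 in KSL of normal mice. CD150, the product of Slamf1, is part of the HSC gate, so the share of Slamf1 in this sum is not independent of the sort.

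Of the 45 ABC genes, 35 were above the floor on all 8 arrays. The floor is the lowest deposited value, and values there have no order. Subfamily A had the most members at it. Of its 14 genes, 5 were at the floor on all 8 arrays, namely Abca6, Abca8a, Abca12, Abca14 and Abca16, and 2 more on some arrays. Abca12 is known for carrying lipids in skin, and Abca6 and Abca8a belong to a cluster of related lipid transporter genes. Of the 10 genes of subfamily C, only Abcc6, a liver transporter, was at the floor on all arrays, and the other 9 were above it on all. In subfamily B, 7 of 8 genes were above the floor on all arrays, and Abcb11, the bile salt export pump, was at the floor on 3. In subfamily G, 5 of 6 were above it on all, and Abcg5, which forms a sterol exporter with Abcg8, was at the floor on 1. All 3 genes of D, the 1 of E and the 3 of F were above the floor on every array. Over all genes tested, 7.09% were at the floor on all arrays and 14.9% on at least 1, against 6 and 10 of the 45 ABC genes.

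**Figure D1:**
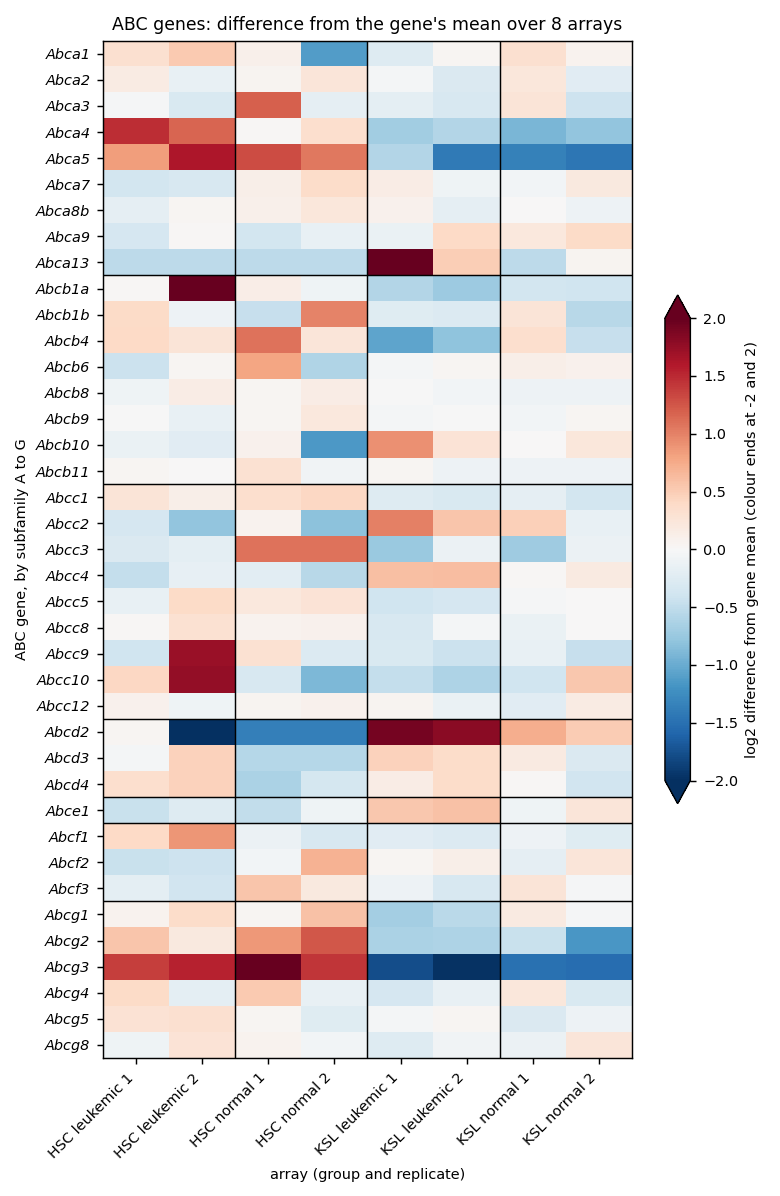
Log2 signal of each ABC gene on each of the 8 arrays, drawn as the difference from the gene's own mean over the arrays, with genes in rows by subfamily A to G and arrays in columns. Genes at the floor on all 8 arrays are left out, and colours end at -2 and 2. Abcg3, Abcg2 and Abca5 lie above their means on the 4 HSC arrays and below them on the 4 KSL arrays, and Abcd2 lies above its mean on the 4 KSL arrays.

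The clearest differences within the family were between the cell types. Averaged over mice of both kinds, a comparison added after the data had been seen, 5 of 45 ABC genes were higher in HSC than in KSL, where 5.05% of all genes were. They were Abcg3, Abca5, Abca4, Abcg2 and Abcc1. Abcc4 was lower in HSC, where 4.63% of all genes were. Abcg3 had the largest of these differences, about 10-fold in each kind of mouse. Abcg2, the pump behind the side population of stem cells, was 2.01-fold higher in HSC of leukemic mice and 3.62-fold higher in HSC of normal mice, and passed only in the average over both.

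Within leukemic mice, 4 of the 45 ABC genes passed the limma test between HSC and KSL, at an adjusted p under 0.05 with Benjamini-Hochberg adjustment over all 18193 genes. In HSC, 3 were higher, where 3.13% of all genes passed, and 1 was lower, where 2.74% passed. At an unadjusted p under 0.05, 10 were higher and 6 lower, against 12.7% and 10.3% of all genes. The median log2 difference was 0.06 over the 45 ABC genes and 0.01 over all genes. Within normal mice, 2 of 45 passed, both higher in HSC, where 0.803% of all genes passed, and 0 were lower, where 1.00% passed. There, 6 were higher and 1 lower at an unadjusted p under 0.05, against 8.86% and 7.36% of all genes. The median was 0.13 over the ABC genes and 0.00 over all genes.

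In the mean of both HSC minus KSL differences, 16 of 45 ABC genes differed in either direction at an unadjusted p under 0.05, against 26.5% of all genes. On the arrays themselves, 7 ABC genes had all 4 HSC values above all 4 KSL values, as had 9.40% of all genes, and 3 had all 4 below, as had 7.44%. This mean rests on the arrays of both single comparisons, so it is no further evidence for them.

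**Figure D2:**
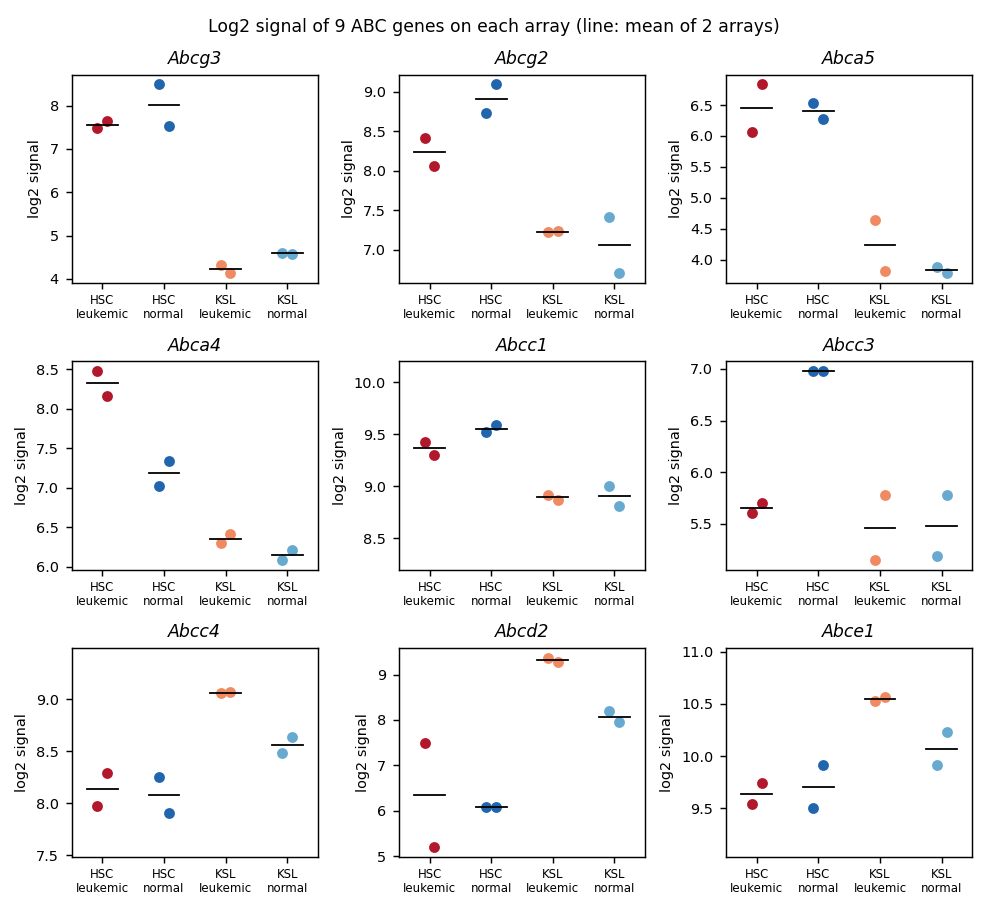
Log2 signal (vertical axis, scaled for each gene) of 9 ABC genes on each array, with HSC of leukemic mice, HSC of normal mice, KSL of leukemic mice and KSL of normal mice from left to right. Points are arrays and lines are means of 2 arrays. Abcg3, Abcg2, Abca5, Abca4 and Abcc1 have 4 HSC points above 4 KSL points, Abcc4, Abcd2 and Abce1 have 4 below, and Abcc3 stands high only in HSC of normal mice. For Abce1 the highest HSC point and the lowest KSL point, both of normal mice, round to the same value, 9.91.

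Abcg3 is a rodent relative of Abcg2 in subfamily G, on chromosome 5, whose substrate is not well known. Its log2 signal (probe set 1421168_at) was 7.49 and 7.64 in the HSC of leukemic mice, against 4.32 and 4.13 in KSL of leukemic mice. In normal mice it was 8.50 and 7.53 in HSC, against 4.61 and 4.58 in KSL. All 4 HSC arrays stood far above all 4 KSL arrays, and the wider of the HSC pairs was that of normal mice. The difference was 3.34 ± 0.33 in leukemic mice (SE of the fit, n = 2 arrays a group, limma adjusted p = 0.0168) and 3.42 ± 0.33 in normal mice (adjusted p = 0.0258), or 10.14-fold and 10.72-fold. The second probe set of Abcg3 had 2.26 and 2.00 for the same 2 differences, and with the mean of both probe sets neither passed, at 2.80 (adjusted p = 0.0581) and 2.71 (adjusted p = 0.0944). The call in normal mice was lost without either KSL array of normal mice (adjusted p = 0.118 and 0.145) or either KSL array of leukemic mice (0.0950 for each), and the call in leukemic mice without any of the same 4 arrays (0.0520 to 0.122). In normal mice the difference without the arrays of male pattern was 2.95, with an adjusted p of 0.0855.

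Abcg2, on chromosome 6, exports dyes, drugs and porphyrins. Its log2 signal (probe set 1422906_at, its only one) was 8.41 and 8.06 in the HSC of leukemic mice, against 7.22 and 7.24 in KSL of leukemic mice. The HSC of normal mice had 8.73 and 9.10, against 7.41 and 6.70 in their KSL. The HSC and KSL arrays did not overlap in either kind of mouse. The difference was 1.01 ± 0.29 in leukemic mice (limma adjusted p = 0.130) and 1.86 ± 0.29 in normal mice (adjusted p = 0.0666), and neither passed. The mean of both was 1.43 ± 0.20 (adjusted p = 0.0235), and it no longer passed in 8 of 18 alternatives.

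Abca5 is a lipid transporter of lysosomes and late endosomes, on chromosome 11. Its log2 signal (probe set 1434474_at) was 6.07 and 6.84 in the HSC of leukemic mice, against 4.65 and 3.81 in KSL of leukemic mice. In normal mice it was 6.53 and 6.28 in HSC, against 3.88 and 3.78 in KSL. The KSL arrays lay close to the floor, apart from replicate 1 of leukemic mice. The difference was 2.22 ± 0.38 in leukemic mice (limma adjusted p = 0.0490) and 2.58 ± 0.38 in normal mice (adjusted p = 0.0635). The call in leukemic mice held in 2 of 18 alternatives, and the mean of both kinds of mice was 2.40 (adjusted p = 0.0152). The second probe set of Abca5 was at the floor on 7 of 8 arrays and could not bear on this.

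Abca4, on chromosome 3, moves retinoid-bound lipids and is known from photoreceptors. Its log2 signal (probe set 1449588_at, its only one) was 8.48 and 8.16 in the HSC of leukemic mice, against 6.30 and 6.41 in KSL of leukemic mice. The HSC of normal mice had 7.02 and 7.34, against 6.08 and 6.21 in their KSL. The groups of each pair did not overlap, and HSC of leukemic mice stood above all other arrays. The difference was 1.96 ± 0.16 in leukemic mice (limma adjusted p = 0.0120) and 1.03 ± 0.16 in normal mice (adjusted p = 0.0668). The call in leukemic mice held in 15 of 19 alternatives. It was lost without either KSL array of leukemic mice, where almost all calls over all genes were lost as well. With any 1 array left out the difference was 1.81 to 2.12. Abca4 was named after its values were seen.

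Abcc1, on chromosome 16, exports glutathione conjugates, leukotrienes and drugs. Its log2 signal (probe set 1421378_s_at, a type that can read more than 1 transcript) was 9.43 and 9.30 in the HSC of leukemic mice, against 8.92 and 8.87 in KSL of leukemic mice. Of normal mice, the HSC had 9.52 and 9.59, against 9.00 and 8.81 in KSL. The differences were small beside those of Abcg3 but larger than the spread of the pairs. They were 0.47 ± 0.08 in leukemic mice (limma adjusted p = 0.0507) and 0.66 ± 0.08 in normal mice (adjusted p = 0.0439). The call in normal mice held in 2 of 19 alternatives and was lost whichever of the 8 arrays was left out (adjusted p = 0.0587 to 0.150). The second probe set of Abcc1 had 0.26 in leukemic mice and 0.13 in normal mice.

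Abcc4, on chromosome 14, exports cyclic nucleotides, prostaglandins and nucleotide drugs. It was the member that was lower in HSC. Its log2 signal (probe set 1443870_at, its only one) was 7.98 and 8.29 in the HSC of leukemic mice, against 9.06 and 9.07 in KSL of leukemic mice. In normal mice it was 8.25 and 7.91 in HSC, against 8.48 and 8.64 in KSL. The difference was -0.92 ± 0.16 in leukemic mice (limma adjusted p = 0.0498) and -0.48 ± 0.16 in normal mice (adjusted p = 0.261). The call in leukemic mice held in 5 of 19 alternatives and was lost whichever array was left out (adjusted p = 0.0507 to 0.230).

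The promoter windows of the 4 genes that passed together in leukemic mice are shown because they were called in 1 comparison of the same arrays. Each has 250 bases before and 50 after the start given by RefSeq on GRCm38.p6, written 5′ to 3′ on the gene's strand, with matches to the searched motifs in capitals. The windows are chr3:122044210-122044509 (+) for Abca4, chr11:110337667-110337966 (-) for Abca5, chr14:118706170-118706469 (-) for Abcc4 and chr5:104982668-104982967 (-) for Abcg3.
Abca4: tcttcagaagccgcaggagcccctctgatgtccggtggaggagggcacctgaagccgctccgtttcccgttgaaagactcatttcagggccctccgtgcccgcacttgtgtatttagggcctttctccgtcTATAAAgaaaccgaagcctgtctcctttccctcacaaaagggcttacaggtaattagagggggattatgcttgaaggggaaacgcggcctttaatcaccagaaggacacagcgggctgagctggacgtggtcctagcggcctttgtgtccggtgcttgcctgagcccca
Abca5: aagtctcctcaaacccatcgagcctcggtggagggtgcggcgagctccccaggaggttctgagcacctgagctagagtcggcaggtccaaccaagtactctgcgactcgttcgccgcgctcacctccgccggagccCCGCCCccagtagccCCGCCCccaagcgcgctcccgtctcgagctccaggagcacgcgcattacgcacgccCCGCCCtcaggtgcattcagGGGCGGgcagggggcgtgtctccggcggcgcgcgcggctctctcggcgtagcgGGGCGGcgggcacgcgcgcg
Abcg3: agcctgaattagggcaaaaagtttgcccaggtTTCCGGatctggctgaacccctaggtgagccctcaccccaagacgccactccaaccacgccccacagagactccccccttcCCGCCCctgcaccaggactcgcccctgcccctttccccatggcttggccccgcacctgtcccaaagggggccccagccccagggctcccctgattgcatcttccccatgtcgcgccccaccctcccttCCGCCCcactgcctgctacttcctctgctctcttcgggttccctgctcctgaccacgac
Abcc4: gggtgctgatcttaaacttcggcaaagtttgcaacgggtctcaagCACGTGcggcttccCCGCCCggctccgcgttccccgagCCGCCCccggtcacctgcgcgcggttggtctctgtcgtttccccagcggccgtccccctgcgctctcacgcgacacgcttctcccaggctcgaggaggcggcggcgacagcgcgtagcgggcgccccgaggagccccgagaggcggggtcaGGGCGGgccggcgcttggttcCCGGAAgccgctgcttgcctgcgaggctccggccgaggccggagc

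Motifs were searched on both strands as exact letters, and none of them holds another. The GC box, spelled GGGCGG, was in 35.7% of all 32851 windows of the table and in 21 of the 42 windows that 35 ABC genes had there. The CCAAT box, of those 5 letters, was in 37.4% of all windows and in 35.7% of the ABC windows. For the TATA box, spelled TATAAA, these shares were 13.6% and 16.7%. An E box, spelled CACGTG, was in 7.2% of all windows and in 11.9% of the ABC windows. A GATA site, spelled AGATAA, was in 11.2% and 14.3%. The ETS site, spelled CCGGAA, was in 14.9% of all windows and 26.2% of the ABC windows. The Abca5 window held 5 GC boxes and 40 CpG, and the Abcc4 window shown 3 GC boxes, 1 E box, 1 ETS site and 41 CpG. The Abcg3 window held 2 GC boxes, 1 ETS site and 11 CpG, and the Abca4 window 1 TATA box and 15 CpG. A second Abcc4 window in the table held 0 of these motifs and 6 CpG. The median CpG number was 16.5 in the ABC windows and 7 over all windows. A match is a run of letters and not a shown binding site.

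Lipid and sterol transporters other than these gave no call between the cell types on the chosen probe sets. Of the 13 members of this role, 8 were above 0 and 3 below in each kind of mouse, and the median difference was 0.16 in leukemic mice and 0.14 in normal mice. Abcg1, which loads cholesterol onto high-density lipoprotein, had 8.97 and 9.26 in the HSC of leukemic mice, against 8.22 and 8.36 in KSL of leukemic mice. The difference was 0.82 ± 0.22 (limma adjusted p = 0.114), and in normal mice 0.23 ± 0.22 (adjusted p = 0.715). Abca1, which loads cholesterol onto apolipoprotein A-I, had 0.52 ± 0.42 in leukemic mice and -0.70 ± 0.42 in normal mice, and its other 2 probe sets had -0.41 and 0.02 in leukemic mice. Abca7, an exporter of phospholipids, had -0.37 ± 0.14 in leukemic mice (adjusted p = 0.217) and 0.18 ± 0.14 in normal mice. Abca2, Abca3, Abca9 and Abcg4 had log2 differences between -0.56 and 0.59 in both kinds of mice. The second probe set of Abca9 had -1.46 ± 0.25 in normal mice (adjusted p = 0.0896), and with the mean of its probe sets Abca9 passed there at -1.01 (adjusted p = 0.0217). In leukemic mice all 6 members of subfamily G were above 0 (median 0.57), and in normal mice 5 of 6 (median 0.23). Of all 18193 genes, 9225 and 9102 were above 0 in these comparisons.

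Among the drug and conjugate pumps, 8 of 11 were above 0 and 2 below in leukemic mice, and 7 above and 3 below in normal mice. Abcb1a and Abcb1b are the mouse genes of P-glycoprotein, the pump of multidrug resistance. Abcb1a had 5.67 and 7.67 in the HSC of leukemic mice, against 5.07 and 4.93 in KSL of leukemic mice, so the HSC mean rested on replicate 2. The difference was 1.67 ± 0.66 (limma adjusted p = 0.231), and its second probe set, at the floor on 4 arrays, had -0.07. Without replicate 1 of HSC of leukemic mice Abcb1a passed at 2.67 (adjusted p = 0.0108). Abcb1b had 0.41 ± 0.56 in both kinds of mice. Abcc3, an exporter of bile salts and glucuronides, had 6.98 on both HSC arrays of normal mice, against 5.19 and 5.78 in KSL of normal mice, with a difference of 1.49 ± 0.29 (adjusted p = 0.0992). In leukemic mice its HSC arrays, at 5.61 and 5.70, lay between the KSL arrays, at 5.15 and 5.78. Abcc5, an exporter of cyclic nucleotides, had 0.48 ± 0.18 in leukemic mice and 0.25 ± 0.18 in normal mice, and its 10 probe sets ranged from -0.40 to 0.48 in leukemic mice.

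**Figure D3:**
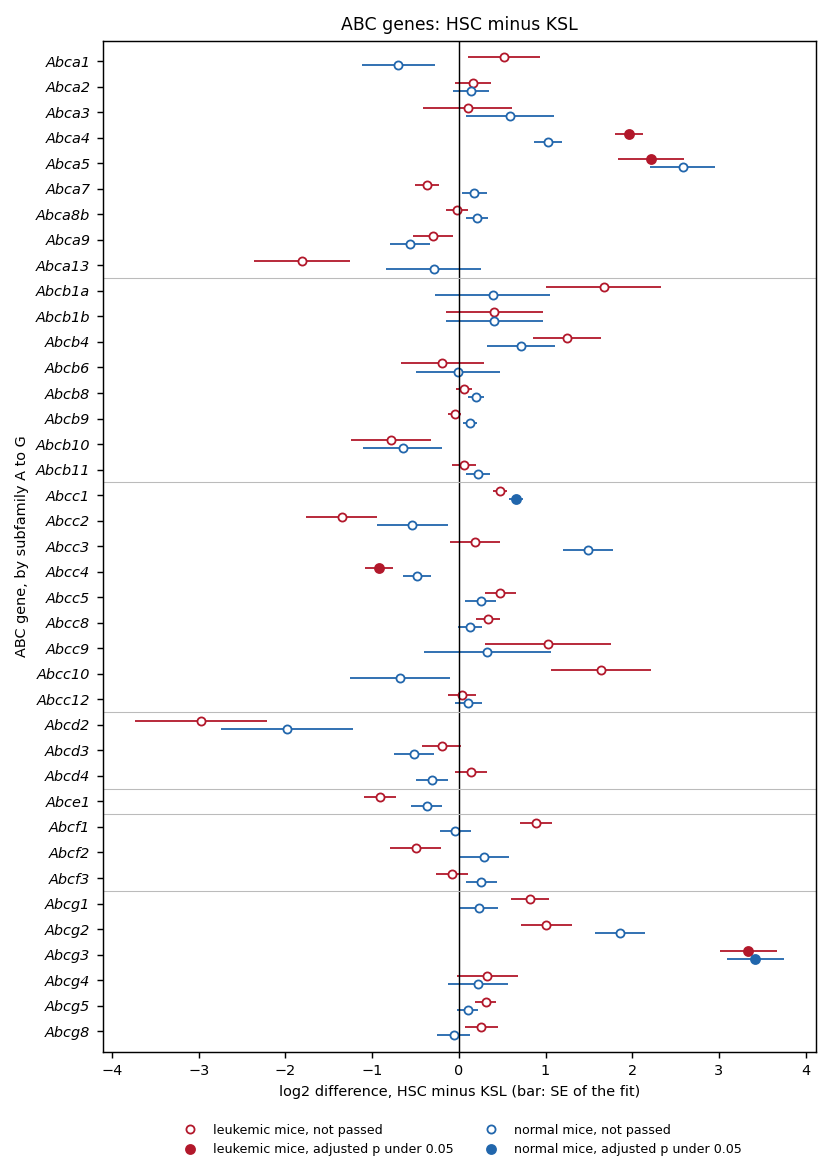
Log2 difference of HSC minus KSL (horizontal axis) for each ABC gene not at the floor on all arrays, by subfamily, with leukemic mice in red above normal mice in blue and bars for the SE of the fit. Filled points passed the limma test at an adjusted p under 0.05: Abca4, Abca5, Abcc4 and Abcg3 in leukemic mice and Abcc1 and Abcg3 in normal mice.

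None of the 3 genes of subfamily D passed on the chosen probe sets. Abcd2, a peroxisomal carrier of very long chain and unsaturated fatty acids, had 7.50 and 5.20 in the HSC of leukemic mice, against 9.37 and 9.27 in KSL of leukemic mice. In normal mice it had 6.09 on both HSC arrays, against 8.19 and 7.96 in KSL. Its difference was -2.97 ± 0.76 in leukemic mice (limma adjusted p = 0.107) and -1.98 ± 0.76 in normal mice (adjusted p = 0.308), and the HSC arrays of leukemic mice differed widely. When every probe set was tested on its own, 2 other probe sets of Abcd2 passed in leukemic mice, at -2.80 (adjusted p = 0.0160) and -1.61 ± 0.19 (adjusted p = 0.0269), and another was at the floor on all arrays. The first of the 2 was at the floor on all 4 HSC arrays, so its difference is a bound, with no spread on the HSC side. With the mean of its probe sets, those at the floor included, Abcd2 passed in leukemic mice, at -1.85 (adjusted p = 0.0238). Abcd3, also peroxisomal, had -0.20 ± 0.23 in leukemic mice and -0.52 ± 0.23 in normal mice. Abcd4, which takes part in the lysosomal handling of cobalamin, had 0.14 ± 0.18 and -0.31 ± 0.18, and Abcb9, a lysosomal peptide carrier, -0.05 ± 0.08 and 0.13 ± 0.08.

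None of the 4 soluble factors passed between the cell types on the chosen probe sets. Abce1, which splits ribosomes after termination, had 9.54 and 9.74 in the HSC of leukemic mice, against 10.53 and 10.57 in KSL of leukemic mice. Its difference was -0.91 ± 0.18 in leukemic mice (limma adjusted p = 0.0686) and -0.37 ± 0.18 in normal mice (adjusted p = 0.438). Its other 2 probe sets each had -0.94 in leukemic mice. Abcf1, a factor of translation initiation, had 11.03 and 11.51 in the HSC of leukemic mice, against 10.40 and 10.35 in KSL of leukemic mice, a difference of 0.89 ± 0.18 (adjusted p = 0.0659). The other 5 probe sets of Abcf1 ranged from -0.83 to 0.69 in the same comparison. In normal mice the difference of Abcf1 was -0.04 ± 0.18. Abcf2 and Abcf3, its relatives, had -0.50 ± 0.29 and -0.08 ± 0.18 in leukemic mice and 0.29 ± 0.29 and 0.26 ± 0.18 in normal mice.

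The mitochondrial members gave no call. Abcb10, needed for haem synthesis in red cell precursors, had -0.78 ± 0.46 in leukemic mice (limma adjusted p = 0.404) and -0.65 ± 0.46 in normal mice (adjusted p = 0.594). Abcb6, a porphyrin carrier, had -0.19 ± 0.48 and -0.01 ± 0.48, and Abcb8, a carrier of the inner mitochondrial membrane, 0.06 ± 0.09 and 0.20 ± 0.09. The 2 HSC arrays of normal mice differed in Abcb10 (8.32 and 7.09) and Abcb6 (8.65 and 7.26), but little in Abcb8 (8.26 and 8.36). On these arrays the 4 erythroid markers measured of 5 summed to 580 to 4840 linear units. Klf1 and Car1 were higher on replicate 1, and Epor and Hba-a1 on replicate 2. The part of these markers was not tested. Abcc8 and Abcc9, subunits of potassium channels gated by ATP, had 0.34 ± 0.14 and 1.03 ± 0.73 in leukemic mice and 0.13 ± 0.14 and 0.33 ± 0.73 in normal mice. The value of Abcc9 in leukemic mice rested on HSC replicate 2, at 5.54 against 3.42 on replicate 1. The other 2 probe sets of Abcc9 were at the floor on all 8 arrays. Among members named after their values were seen, Abcb4, a phospholipid exporter of bile, had 1.25 ± 0.39 in leukemic mice (adjusted p = 0.159) and 0.72 ± 0.39 in normal mice. Abcc10, a drug pump, had 1.64 ± 0.58 (adjusted p = 0.190) and -0.68 ± 0.58, and Abcc2, an exporter of conjugates, -1.35 ± 0.41 (adjusted p = 0.149) and -0.54 ± 0.41. Abca13 was at the floor on all 4 HSC arrays, against 5.93 and 4.34 in KSL of leukemic mice, so it was at least 3.51-fold lower in HSC of leukemic mice (adjusted p = 0.149).

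Markers of other cell types moved between the gates beside these results. The 3 multipotent progenitor markers (Cd48, Flt3 and Cd34) were all measured. They summed to 802 to 1523 linear units in HSC of leukemic mice, against 2793 to 3117 in KSL of leukemic mice. In normal mice they summed to 1118 to 1395 in HSC, against 4451 to 5023 in KSL. CD48 is part of the HSC gate, so the share of Cd48 in this sum is not independent of the sort. The 4 markers of granulocyte-monocyte progenitors (Mpo, Elane, Ctsg and Prtn3) summed to 4115 to 6628 in HSC of leukemic mice, against 35659 to 38090 in KSL, and to 1642 to 2250 in HSC of normal mice, against 27763 to 31011 in KSL. The 4 megakaryocyte markers measured of 5 summed to 6547 to 7148 in HSC of leukemic mice, against 929 to 1153 in KSL, and to 3944 to 6580 in HSC of normal mice, against 1842 to 3128 in KSL. The 3 mast cell markers summed to 112 to 238 in HSC of leukemic mice, against 1507 to 1621 in KSL, and to 78 to 85 in HSC of normal mice, against 758 to 814 in KSL. The 3 T and NK cell markers (Cd3e, Cd3g and Nkg7) summed to 840 to 899 in HSC of leukemic mice, against 3403 to 4463 in KSL, and to 498 to 771 in HSC of normal mice, against 3319 to 3769 in KSL. No marker of these 5 lists was at the floor on both arrays of a group. Control probes for RNA quality differed between the gates as well. For Tfrc, the leukemic HSC arrays had 3′ minus 5′ differences of -0.36 and -0.75 log2 units. The leukemic KSL arrays had -1.65 and -1.68. Normal mice showed the reverse order for Tfrc, with -2.04 and -1.74 on their HSC arrays and -1.28 and -1.58 on their KSL arrays. For Gapdh, leukemic HSC arrays had 1.19 and 1.03, above the 0.73 and 0.75 of leukemic KSL arrays. The Gapdh values of normal mice overlapped, at 0.78 and 0.83 (HSC) and 0.89 and 0.74 (KSL). The part of these markers and controls in the ABC results was not tested, and in bulk samples fewer cells of a type and less RNA per cell cannot be told apart.

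The study's own question was how normal cells beside leukemic ones differ from those of normal mice. For the ABC family in HSC, no gene passed that comparison. Limma called 0 of 45 ABC genes at an adjusted p under 0.05, where 0.0989% of all genes passed in either direction. At an unadjusted p under 0.05, 6 were higher in HSC of leukemic mice, against 6.54% of all genes, and 3 were lower, against 7.23%. The median log2 difference was 0.00 over the 45 ABC genes and 0.00 over all genes.

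Abca4 had the smallest p, with the HSC values given above, 8.48 and 8.16 in leukemic mice against 7.02 and 7.34 in normal mice. Its difference was 1.14 ± 0.16 (limma adjusted p = 0.125), or 2.21-fold. Abcd4 had 7.42 and 7.54 in the HSC of leukemic mice, against 6.45 and 6.73 in those of normal mice, with a difference of 0.89 ± 0.18 (adjusted p = 0.181), and 0.76 on its second probe set. Abcd3 had 8.52 and 9.02 in the HSC of leukemic mice, against 7.98 on both arrays of normal mice, a difference of 0.79 ± 0.23 (adjusted p = 0.269), and 0.11 on its second probe set. All 3 members of subfamily D were above 0, with a median of 0.79, though Abcd2 had only 0.26 ± 0.76. Of all 18193 genes, 8432 were above 0. Abcf1 had 0.85 ± 0.18 (adjusted p = 0.184), while its 6 probe sets ranged from -0.21 to 0.95. Abcg5 had 0.40 ± 0.12 (adjusted p = 0.272) close to the floor, and Abcc10 1.70 ± 0.58 (adjusted p = 0.316), with 7.32 on replicate 2 against 5.97 on replicate 1.

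Of the 45 ABC genes 22 were below 0, and those with the smallest p were Abcc3, Abca7 and Abcf3. Abcc3 had 5.61 and 5.70 there, against 6.98 on both arrays of HSC of normal mice, and its difference was -1.33 ± 0.29 (limma adjusted p = 0.196). Abca7 had 7.76 and 7.80, against 8.24 and 8.49 in HSC of normal mice, with -0.58 ± 0.14 (adjusted p = 0.219). Abcf3, whose yeast relative acts in the sensing of amino acids, had 7.15 and 6.97, against 7.91 and 7.55 in HSC of normal mice, with -0.66 ± 0.18 (adjusted p = 0.240). Its other 2 probe sets had -1.45 and -0.54. Abcf2 had 9.09 and 9.12, against 9.47 and 10.22 in HSC of normal mice, with -0.74 ± 0.29 (adjusted p = 0.373) and -0.03 on its second probe set. None of these passed. In all, 15 of 45 ABC genes, 8 lower and 7 higher, had arrays that did not overlap between the HSC groups, as had 32.7% of all genes.

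The members best known from stem cells did not pass either. Abcg2 had a difference of -0.68 ± 0.29 between HSC of leukemic and of normal mice (limma adjusted p = 0.407), with groups that did not overlap. Abcg3 had -0.45 ± 0.33 (adjusted p = 0.626), Abcc1 -0.20 ± 0.08 (adjusted p = 0.411) and Abcb1b -0.11 ± 0.56. Abcb1a had 1.00 ± 0.66 (adjusted p = 0.595), which rested on replicate 2 of leukemic mice at 7.67 against 5.67 on replicate 1, and it passed without replicate 1 at 2.00 (adjusted p = 0.0305) but was 0.00 without replicate 2. The second probe set of Abcb1a went the other way, at -1.15 ± 0.40, with the floor on both HSC arrays of leukemic mice against 3.87 and 5.07 in normal mice. Abcd2 had 0.26 ± 0.76, and its sign turned with the array left out, at -0.89 without replicate 1 of leukemic mice (adjusted p = 0.0723) and 1.41 without replicate 2 (adjusted p = 0.0464). Abca5, Abcc4 and Abce1 had 0.05, 0.06 and -0.06. Abca1 had 0.92 ± 0.42 on the chosen probe set and -0.56 and -0.05 on its other 2. Abca3, a lipid carrier of lung surfactant, had -0.68 ± 0.51, and its other 2 probe sets had 0.85 and -0.95.

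**Figure D4:**
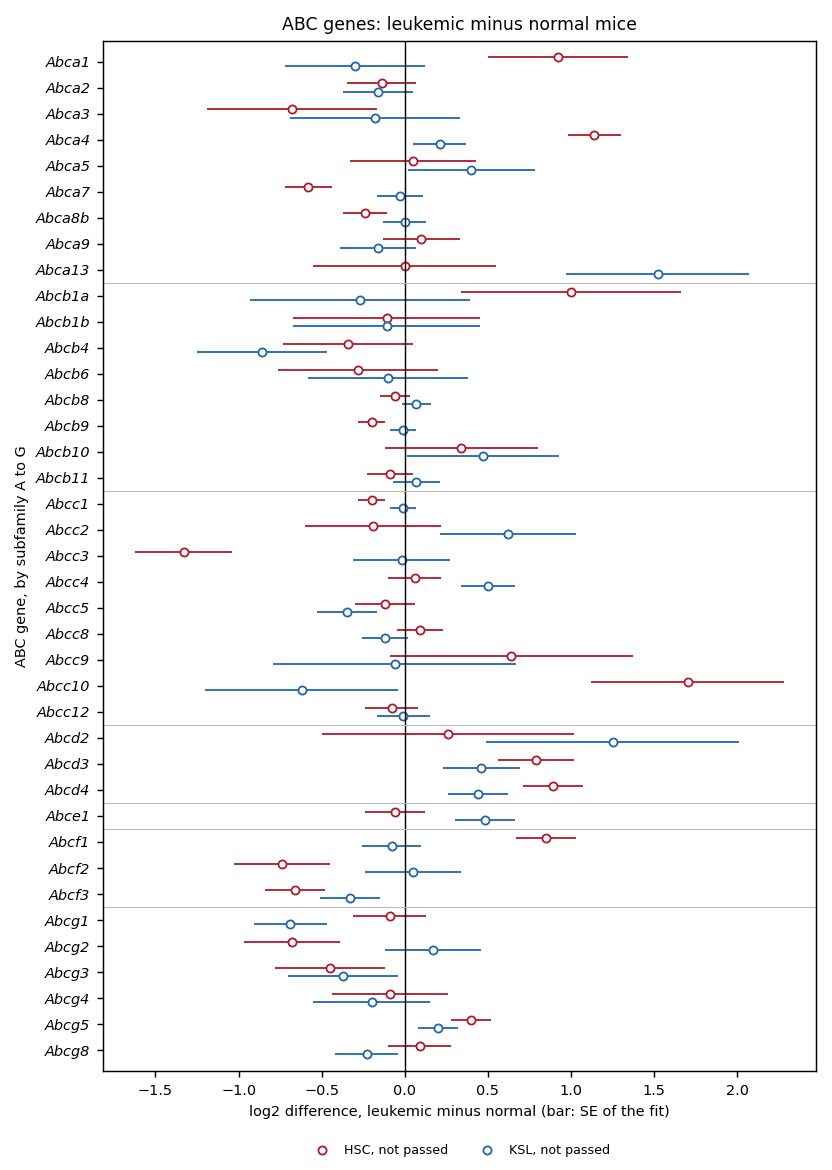
Log2 difference of leukemic minus normal mice (horizontal axis) for each ABC gene not at the floor on all arrays, by subfamily, with HSC in red above KSL in blue and bars for the SE of the fit. No point passed the limma test at an adjusted p under 0.05, and the values range from -1.33 for Abcc3 to 1.70 for Abcc10, both in HSC.

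The control probes also differed between the HSC groups beside these values. The difference between 3′ and 5′ probe sets was 1.19 and 1.03 log2 units in the HSC of leukemic mice, against 0.78 and 0.83 in those of normal mice, for Gapdh. For Tfrc it was -0.36 and -0.75 in leukemic mice, against -2.04 and -1.74 in normal mice, and for Actb -0.42 and -0.50, against -0.37 and -0.38. In KSL it was 0.73 and 0.75 in leukemic mice, against 0.89 and 0.74 in normal mice, for Gapdh. For Tfrc it was -1.65 and -1.68 in KSL of leukemic mice, against -1.28 and -1.58 in those of normal mice. For Actb it was -0.53 on both KSL arrays of leukemic mice, against -0.48 on both of normal mice. The 6 neutrophil markers (S100a8, S100a9, Lcn2, Ltf, Ngp and Camp) summed to 13191 to 18891 linear units in HSC of leukemic mice, against 530 to 10057 in those of normal mice, with none at the floor on both arrays of a group. The 5 HSC markers were lower in HSC of leukemic mice, as given above. Their part in the ABC values was not tested.

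In KSL of leukemic against normal mice, limma again called 0 of 45 ABC genes, where 0.0440% of all genes passed. At an unadjusted p under 0.05, 2 were higher, against 3.50% of all genes, and 1 was lower, against 4.45%. Abcg1 had 8.22 and 8.36 in KSL of leukemic mice, against 9.08 and 8.88 in KSL of normal mice. Its difference was -0.69 ± 0.22 (limma adjusted p = 0.539), and -0.03 on its second probe set. Abcc4 had 9.06 and 9.07, against 8.48 and 8.64 in KSL of normal mice, with 0.50 ± 0.16 (adjusted p = 0.545). Abca13 had 5.93 and 4.34, against the floor and 3.90 in KSL of normal mice, with 1.52 ± 0.55 (adjusted p = 0.605). Its second probe set had 0.97. Abce1 had 0.48 ± 0.18 and Abcd4 0.44 ± 0.18. The 3 members of subfamily D were above 0 here too, with a median of 0.46, where 7739 of all 18193 genes were above 0. The second probe set of Abcd3 had 5.76 and 5.67 in KSL of leukemic mice, between the 5.21 and 6.24 of normal mice. Abcg2 had 0.17 ± 0.29, Abcg3 -0.37 ± 0.33 and Abcc1 -0.01 ± 0.08.

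Averaged over both cell types, limma called 0 of 45 ABC genes between leukemic and normal mice, where 0.0824% of all genes passed. At an unadjusted p under 0.05, 8 of 45 differed, against 12.6% of all genes. Abcd4 was the 1 ABC gene with all 4 arrays of leukemic mice above all 4 of normal mice, as had 1.48% of all genes, and Abcf3 the 1 with all 4 below, as had 2.15%. Their average differences were 0.67 ± 0.13 (limma adjusted p = 0.183) and -0.50 ± 0.13 (adjusted p = 0.243). The 4 values of Abcd4 in leukemic mice were 7.42 and 7.54 in HSC and 7.23 and 7.45 in KSL, against 6.45 and 6.73 in HSC and 7.10 and 6.70 in KSL of normal mice.

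The test of whether the difference between leukemic and normal mice was itself different in HSC and KSL called 0 of 45 ABC genes, where 0.00550% of all genes passed. At an unadjusted p under 0.05, 5 of 45 differed, against 9.09% of all genes. These were Abca4, at 0.94 ± 0.23 for the HSC difference minus the KSL difference (limma adjusted p = 0.376), Abcf1 at 0.93 ± 0.25, Abcc10 at 2.32 ± 0.81, Abcc3 at -1.30 ± 0.41 and Abca7 at -0.56 ± 0.20. Their adjusted p-values lay between 0.376 and 0.522. All comparisons above were made on the same 8 arrays, and those that name a common group share its arrays.

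Of the 45 genes, 26 had several probe sets and 19 had 1. Of the 23 genes with several probe sets that could be compared between HSC and KSL of leukemic mice, 9 had probe sets of both signs, and Abcg3, Abcd2 and Abce1 had 1 sign. Between HSC of leukemic and of normal mice 13 of 23 had both signs, among them Abca1, Abca3, Abcb1a, Abcb9, Abcb10, Abcc1, Abcd2, Abcf1 and Abcg1. Abcb9 had 0.78 on 1 probe set and -0.20 and -0.17 on the other 2. The third probe set of Abcb10 had -0.28 in HSC of leukemic against normal mice, where the other 2 had 0.34 and 0.75.

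**Figure D5:**
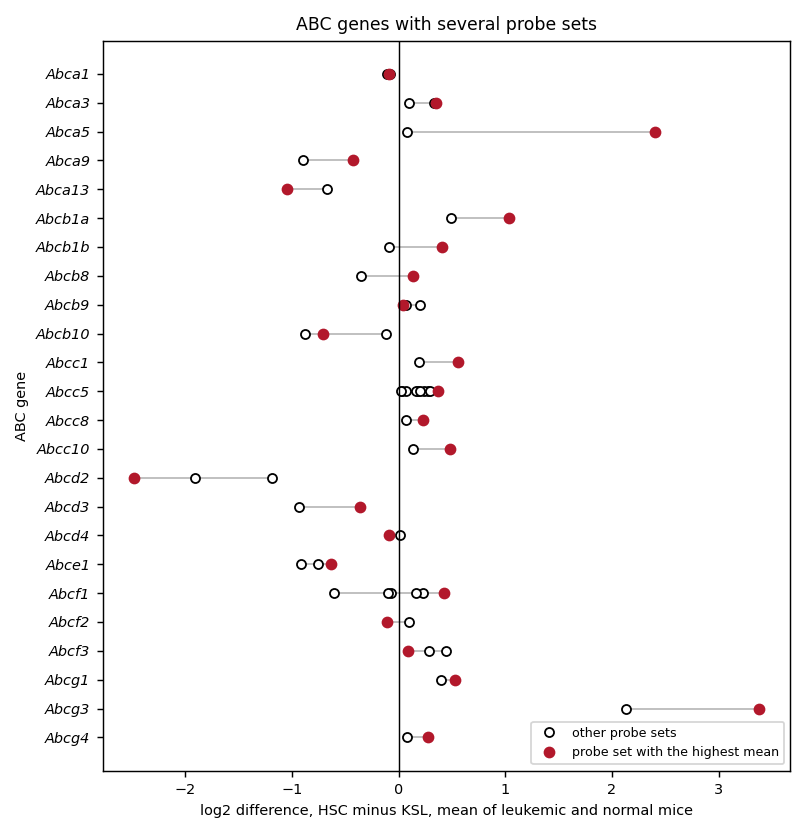
Log2 difference of HSC minus KSL (horizontal axis), as the mean of leukemic and normal mice, for every probe set of the ABC genes with several probe sets, leaving out probe sets at the floor on all arrays. Red points are the probe sets with the highest mean, open points the others, and grey lines join the probe sets of a gene. Abcg3 lies at 3.38 and 2.13, Abca5 at 2.40 and 0.08, and Abcf1 from -0.61 to 0.42.

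Genes that work with the ABC transporters were read beside them. Their counts are to be read against the shares of all genes that passed, which were 3.13% higher and 2.74% lower in HSC of leukemic mice and 5.05% and 4.63% in the average over both kinds of mice. Of 16 sterol genes measured of 19 listed, 1 passed between HSC and KSL of leukemic mice. Apoe, the lipoprotein component that takes up cholesterol from ABC exporters, was higher in HSC by 2.01 ± 0.30 (limma adjusted p = 0.0366), with 9.09 and 8.97 in HSC of leukemic mice against at most 7.02 in KSL of leukemic mice. In the average over both kinds of mice Srebf2, a sterol-sensing transcription factor gene, and Insig1, which retains it, passed as well, at 1.39 ± 0.24 (adjusted p = 0.0357) and 0.57 ± 0.10 (adjusted p = 0.0375). Of 10 haem and iron-sulphur genes measured of 11, Alas1, the first enzyme of haem synthesis, was lower in HSC, with differences of -3.15 ± 0.33 in leukemic mice (adjusted p = 0.0186) and -2.98 ± 0.33 in normal mice (adjusted p = 0.0346). Of 9 peroxisome genes measured of 10, Scp2, a sterol carrier and thiolase, was lower in HSC of leukemic mice than in KSL, with a difference of -0.88 ± 0.06 (adjusted p = 0.0104). In the list of 3 ABC proteins with other symbols (Tap1, Tap2 and Cftr, which was at the floor on all arrays) and in that of 5 drug response regulators measured of 6, 0 passed. Between leukemic and normal mice 0 genes of these 5 lists passed in HSC, in KSL, in their average or in the interaction.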

How the data were processed

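Mouse RNA was measured on 8 Affymetrix arrays, 2 in each of 4 groups read from the labels of disease state and of cell type. A single table of log2 values, deposited by the authors, held 45101 probe sets. RMA is named in the submitters' processing notes, and any further step is not given in the sources used here. A floor, the lowest value in the table, held 14.9% to 15.8% of probe sets per array, so differences of dim genes are understated. RNA amplification is not settled, since the design text names a Nugen kit and the labelling protocol the standard Affymetrix method. The free-text descriptions speak of embryos and were not used, and for KSL of leukemic mice, whose titles carry both wordings, the disease state label was used. All 8 columns matched samples, and 0 were left unused. Of the probe sets, 34945 had 1 symbol in the platform annotation. All 92 probe sets of ABC genes were found by identifier in the RefSeq table of GRCm38.p6, and 0 symbols were updated.

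The log2 values were modelled in R 4.3.3 by limma 3.58.1 (1 mean per group over 8 arrays, 4 residual and 0.67 prior degrees of freedom, two-sided, Benjamini-Hochberg over 18193 genes). Genes with an adjusted p under 0.05 passed. The small number of arrays limits the precision. Alternatives were another normalization, array shifts, filters on dim genes, array weights, another variance model, the replicate number as a block, sex pattern, other probe set choices, fewer arrays and leaving out each array. Named were members that passed, 30 members listed by role as far as measured, up to 6 members with the smallest p in each direction, and members with disagreeing or floor-bound probe sets. The members, lists and comparisons were chosen with earlier results of these data known. Replicate numbers were not used as pairs in the main fit. The correlation of replicate differences between groups was -0.035 to 0.087, highest between HSC and KSL of normal mice. It cannot show whether samples shared animals, and replicate 1 had the male pattern in both normal groups. Python 3.11.15 with pandas 2.3.3 and numpy 2.4.6 gave the tables and motif counts, and matplotlib 3.10.9 the figures.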

Additional observations from a re-analysis of the deposited data

How the results depend on the processing

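No direction of an ABC gene that passed with all arrays and the chosen probe sets was turned by any alternative, and the number of ABC genes called was as follows. Between HSC and KSL of normal mice it was 2, where 328 of all genes passed. It was 5 after removal of every gene with a floor value, where 546 of all genes passed. Without the lowest 40% of genes it was 4, where 513 passed. It was 1 with array weights (219 of all genes), with a term for the male pattern (168) and with the mean of a gene's probe sets (478). It was also 1 with each probe set on its own (398 probe sets). With only the 4 arrays compared it was 0, as it was over all genes. With the replicate block it was 0. Fits without 1 array, or without the arrays of male pattern, leave 1 array in a group, so their counts are not given. The single call with the mean of probe sets was Abca9, lower in HSC (-1.01, limma adjusted p = 0.0217). Between HSC and KSL of leukemic mice it was 4, where 1067 of all genes passed. It was 2 with array weights (640 of all genes) and with trend and robust variance (965), and 1 with only the arrays compared (94). It was 3 with the replicate block, and leaving out 1 array gave 0 to 7. In the average over both kinds of mice it was 6, then 10 after removal of every gene with a floor value and 1 without the arrays of male pattern, and leaving out 1 array gave 2 to 9. Between leukemic and normal mice it was 0 in HSC, in KSL, in the average and in the interaction under every alternative that keeps all arrays. Leaving out 1 HSC array of leukemic mice took the HSC difference of Abcb1a up to 2.00 and that of Abcd2 up to 1.41. In HSC the difference of Abcb1a was -0.07 with the mean of its probe sets and that of Abcd2 was -0.89 without replicate 1 of leukemic mice, both turned in sign. The replicate block moved the count over all genes to 19 between HSC and KSL of normal mice, against 328, and to 401 in leukemic mice, against 1067. The cause of these shifts was not tested. With 2 arrays a group the spread rests on 4 residual degrees of freedom, which limits what can be called.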
